A study of Mus musculus with 6 samples.

Results

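ATP-binding cassette (ABC) transporter genes were described in mDCT15 cells, a mouse cell line labelled as distal convoluted tubule. The genes were chosen by symbol: Abc, a subfamily letter from a to g, a number and at most 1 further letter. This rule found 36 of the 20624 genes listed, with 0 symbols listed more than once. In the genome annotation used here 50 genes match the rule. The other 14 (Abca8a, Abca12, Abca13, Abca14, Abca15, Abca16, Abcb1a, Abcb5, Abcb11, Abcc8, Abcc9, Abcg3, Abcg5 and Abcg8) are not listed in the table analysed here and have no value below.

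The study asked how loss of Pkd1, the gene of polycystin-1 that is mutated in polycystic kidney disease, changes the release of extracellular vesicles by tubule cells. RNA was sequenced from 3 Pkd1-/- samples, whose gene was disrupted by CRISPR-Cas9, and from 3 wild type samples. Titles call the first group Pkd1-/-, while its genotype label reads knockdown, and whether the line is 1 clone is not given in the sources used here. Both groups were grown untreated in DMEM/F12 medium with fetal bovine serum and penicillin-streptomycin.

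The value used for each gene is the authors' mean normalized count over all 6 samples, Pkd1-/- and wild type together. It therefore carries no standard deviation and no comparison of the genotypes, and the depth per sample was not analysed here. Differences between genes are given as descriptions without a test. Pkd1 itself had a mean of 3175, which pools both genotypes and so does not check the knockout.

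ABC proteins bind and hydrolyse ATP on paired nucleotide-binding domains. In most of the family this drives a substrate across a membrane, and subfamilies A, B, C, D and G hold transporters of lipids, peptides, conjugated metabolites, drugs and metal cofactors. Subfamilies E and F have the ATP-binding domains without membrane spans and act in translation. In kidney tubules the family is known for secretion of organic anions and drugs into urine and for the organelle transporters that all cells carry.

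The feature that all 36 genes share in sequence is the Walker A motif, the loop of the nucleotide-binding domain that holds the phosphates of ATP. A pattern of glycines followed by lysine and serine or threonine was found in the longest coding sequence of 36 of 36 genes. It occurred 1 time in 12 genes, whose proteins have 625 to 842 residues: 5 genes of subfamily B, 4 of subfamily D and 3 of subfamily G. It occurred 2 times in the other 24, with 603 to 2433 residues. The genes with 1 motif encode proteins with a single nucleotide-binding domain, which work as dimers. The coding bases of the first motif are shown for the gene with the highest level per kb in each subfamily, 5′ to 3′ from GRCm39, with the codons of the invariant glycines, lysine and serine or threonine in capitals.
Abca3: GGCcacaatGGTgctGGGAAGACC
Abcb10: GGCccaagtGGTtctGGGAAATCA
Abcc5: GGCagtgtgGGAagtGGAAAAACC
Abcd3: GGTccaaacGGCtgtGGAAAGAGC
Abce1: GGAactaatGGTattGGAAAGTCA
Abcf1: GGAcccaacGGCaaaGGCAAAACC
Abcg2: GGAcccacaGGCggaGGCAAGTCT

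The family covered a wide range of levels. The means ran from 0.783 for Abca17 to 4332 for Abce1. Of the 36 genes, 11 reached a mean of 1000, 10 lay from 100 to 1000, 7 from 10 to 100, and 8 were under 10. The share whose mean reached 100 was 58.3% (21 genes), beside 50.3% of all listed genes, 72.9% of the 13862 protein-coding genes and 59.9% (160 of 267) of the solute carrier genes, the other large class of membrane transporters. The median of the family was 214, against 104.5 for all listed genes, 474 for protein-coding genes and 247 for solute carriers, and 20 of the 36 genes lay at or above the median of all listed genes. In bulk samples, fewer cells that express a gene and less RNA per cell cannot be told apart.

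**Figure D1:**
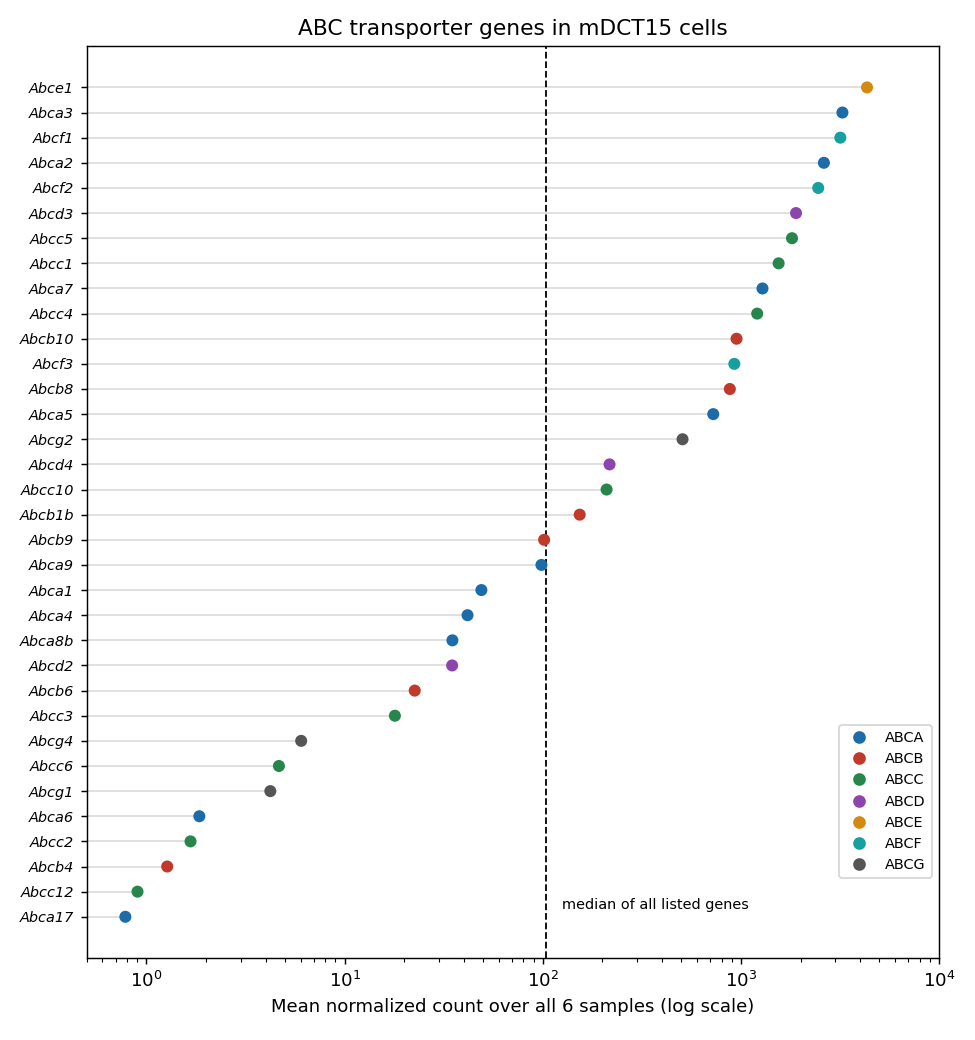
Mean normalized count over all 6 samples (log axis) for 34 of the 36 ABC transporter genes, 1 point per gene coloured by subfamily, in order of the mean. The dashed line is the median of all listed genes (104.5), and 18 of the 34 genes shown lie at or above it.

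Together the 36 genes took 30485 normalized counts, or 0.182% of the sum over all listed genes. The 5 highest genes (Abce1, Abca3, Abcf1, Abca2 and Abcf2) held 52.0% of the family's sum and the 11 highest held 82.4%. Of those 5, Abce1, Abcf1 and Abcf2 encode soluble proteins, and Abca3 and Abca2 encode lipid transporters. By subfamily, A took 26.6% of the sum, F 21.5%, C 15.8%, E 14.2%, B 11.9%, D 8.22% and G 1.70%. These are shares of counts, in which long transcripts weigh more than short ones. Subfamily E is the single gene Abce1.

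The mean normalized count grows with transcript length, so levels were also given after division by the merged exon length, scaled to a sum of 1000000 over all genes with a gene model. On this per-kb scale the median of the 36 genes was 9.68 and that of the 20122 genes with a gene model was 9.93. The highest level per kb, that of Abce1, was 7325 times the lowest, that of Abcb4. The mean of Abcb4 was 1.27, so this ratio rests on few reads. With the length of the longest transcript instead, Abca17 was lowest and the ratio was 8057. The highest genes were, in order, Abce1, Abcf1, Abcf2, Abca3, Abca2, Abcd3, Abcb10 and Abca7. With the length of the longest transcript in place of merged exons 8 of the 10 highest kept their place among them, while Abcc5 and Abcc1 took the places of Abcb10 and Abca7.

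**Figure D2:**
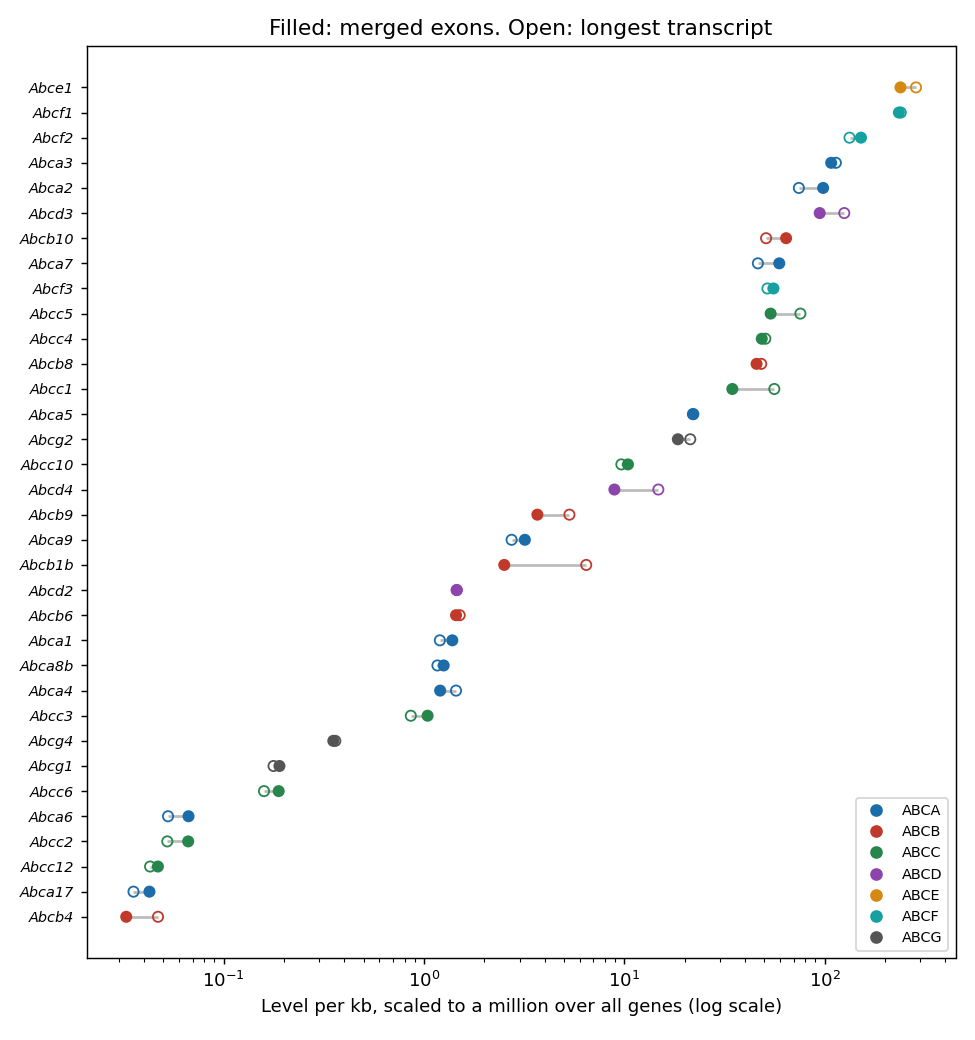
Level per kb of 34 of the 36 ABC transporter genes (log axis, scaled to 1000000 over all genes), with filled points for division by merged exons and open points for division by the longest transcript. Abce1 (239) and Abcf1 (235) are highest, and Abcb1b shows the widest gap between the 2 lengths (2.52 and 6.46).

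The soluble ATP-binding proteins of translation formed the highest group. Abce1 (ENSMUSG00000058355, chr8:80410070-80438369, minus strand), which splits ribosomes after termination, had a mean of 4332 and a level per kb of 239, above 96.8% of genes with a gene model. Abcf1 (ENSMUSG00000038762, chr17:36267576-36280738, minus strand), a partner of the initiation machinery, had a mean of 3177 and a level per kb of 235. The 2 genes were 1.36-fold apart by mean, 1.02-fold apart per kb and 1.19-fold apart with the longest transcript, with Abce1 the higher each time. Abcf2 followed with 152 per kb and Abcf3 with 55.6 per kb, and all 4 listed genes of this group had means of at least 927.

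Of the lipid transporters of subfamily A, Abca3 and Abca2 had the highest levels per kb. Abca3, which loads phospholipid into the lamellar bodies of lung alveolar cells, had a mean of 3255 and a level per kb of 108. Abca2 (ENSMUSG00000026944, chr2:25318573-25338557, plus strand), an endolysosomal lipid transporter best known from brain, had a mean of 2625 and a level per kb of 98.3. These 2 genes differed 1.10-fold per kb. Abca7, a phospholipid transporter related to Abca1, had a mean of 1286 and a level per kb of 59.4, and Abca5 had 726 and 22.0. Abca4, the retinal transporter of photoreceptors, was lower, with a mean of 41.8 and a level per kb of 1.21.

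The exporters of cholesterol to lipoproteins were low in these cells. Abca1, which hands cholesterol and phospholipid to apolipoprotein A-I, had a mean of 49.0, and the level per kb of Abca2 was 70.9 times that of Abca1. Abcg1, which exports sterols to mature lipoprotein particles, had a mean of 4.22, and its relative Abcg4 had 6.04. Of the 4 genes listed for cholesterol and phospholipid export only Abca7 had a mean of 100 or more. Abcg5 and Abcg8, which form the sterol exporter of gut and bile, were not analysed here.

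The multidrug and organic anion exporters were led by 3 genes of subfamily C. Abcc5 (ENSMUSG00000022822, chr16:20150053-20245192, minus strand), an exporter of organic anions and cyclic nucleotides, had a mean of 1812 and a level per kb of 53.8. Abcc4, which moves cyclic nucleotides and urate across renal tubule membranes, had 1209 and 48.6. Abcc1, which exports glutathione conjugates, had 1551 and 34.6, or 56.1 per kb with the longest transcript, which would place it above Abcc4 at 50.6. Abcg2 (ENSMUSG00000029802, chr6:58561505-58672661, plus strand), a urate and drug exporter, had a mean of 508 and a level per kb of 18.5, and the level per kb of its relative Abcg1 was lower 97.5-fold. Abcc10, a broad-substrate drug exporter, had a mean of 210, and Abcb1b, a P-glycoprotein, had 154. The organic anion transporters Abcc3 and Abcc2 had means of 18.0 and 1.67, so 6 of the 8 listed genes of this group had means of 100 or more. Abcb1a, the other mouse P-glycoprotein gene, was not analysed here. Of the remaining genes of subfamily C, Abcc6, which is needed for ATP release by hepatocytes, had a mean of 4.66 and Abcc12 had 0.902.

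The mitochondrial transporters differed among themselves. Abcb10, an inner membrane protein of haem metabolism, had a mean of 951 and a level per kb of 64.3, and Abcb8 had 880 and 45.7. Abcb6, a porphyrin-linked member of the same group, stood far below both, with a mean of 22.6 and a level per kb of 1.45. Of the 42-base stretches of its transcript, 88.1% also lie in an overlapping gene of the same strand. The part of this overlap in its low level was not tested.

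The peroxisomal transporters also spread. Abcd3 (ENSMUSG00000028127, chr3:121552423-121609141, minus strand), which imports branched-chain acyl groups and bile acid precursors, had a mean of 1899 and a level per kb of 94.5. Abcd2, an importer of very-long-chain acyl groups, had 34.9 and 1.46, so Abcd3 was 64.8 times as high as Abcd2 per kb. Abcd4, which is needed for cobalamin to leave the lysosome, had a mean of 217 and a level per kb of 8.93. Abcb9, a lysosomal peptide transporter, had 102 and 3.68. Both lay between Abcd3 and Abcd2.

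Of the 36 genes, 12 lay within 200 kb of another, and some of these neighbours differed widely while others did not. On chromosome 17, Abca3 (chr17:24570895-24629842, plus strand) and Abca17 (chr17:24483233-24570237, minus strand) point away from each other with 657 bases between them. Their levels per kb differed 2530-fold, and 3206-fold with the longest transcript. The mean of Abca17 was 0.783, so these ratios rest on few reads. Pkd1 lies on the same chromosome, 139 kb past the end of Abca3. On chromosome 5, Abcb1b (chr5:8847994-8916389) and Abcb4 (chr5:8943604-9011999), which exports phosphatidylcholine into bile, are 27.2 kb apart on the plus strand. The level per kb of Abcb1b was 77.1 times that of Abcb4, whose mean was 1.27, and 137 times with the longest transcript. On chromosome 11 the listed minus-strand genes Abca8b, Abca9, Abca6 and Abca5 lie in this order, with means of 35.0, 98.6, 1.85 and 726. Abca8a, which has no value here, lies between Abca8b and Abca9. Per kb Abca5 was 329 times Abca6, its neighbour at 16.9 kb, and Abca9 was 2.54 times Abca8b. Abca9 and Abca6, 5.29 kb apart, differed 47.7-fold per kb. Abca8b and Abca6 differed 18.8-fold, and Abca9 and Abca5 6.9-fold. On chromosome 16, Abcc5 and Abcf3, 122 kb apart, were 1.03-fold apart per kb, with Abcf3 the higher. With the longest transcript they were 1.46-fold apart, and by mean 1.96-fold, with Abcc5 the higher both times. Abcb8 and Abcf2, 152 kb apart on chromosome 5, were 3.32-fold apart.

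The windows before the start sites of these neighbours are shown because the genes differ in level at short distance. Each holds the 250 bases before the canonical start, 5′ to 3′ on the gene's strand from GRCm39, with CpG dinucleotides in capitals. Abca3 (chr17:24570649-24570898, plus) has 23 CpG and Abca17 (chr17:24570238-24570487, minus) has 7. Abcb1b (chr5:8847744-8847993, plus) has 2 and Abcb4 (chr5:8943354-8943603, plus) has 7.
Abca3: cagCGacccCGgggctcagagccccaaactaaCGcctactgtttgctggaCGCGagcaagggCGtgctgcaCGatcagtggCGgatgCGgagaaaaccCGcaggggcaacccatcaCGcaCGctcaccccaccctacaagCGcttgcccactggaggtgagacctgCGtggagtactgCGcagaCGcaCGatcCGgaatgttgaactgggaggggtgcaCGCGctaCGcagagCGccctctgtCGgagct
Abca17: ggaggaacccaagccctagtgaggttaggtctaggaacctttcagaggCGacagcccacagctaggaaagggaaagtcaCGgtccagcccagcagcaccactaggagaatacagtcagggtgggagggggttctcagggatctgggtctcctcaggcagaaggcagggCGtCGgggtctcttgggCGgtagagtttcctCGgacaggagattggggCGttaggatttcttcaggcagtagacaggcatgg
Abcb1b: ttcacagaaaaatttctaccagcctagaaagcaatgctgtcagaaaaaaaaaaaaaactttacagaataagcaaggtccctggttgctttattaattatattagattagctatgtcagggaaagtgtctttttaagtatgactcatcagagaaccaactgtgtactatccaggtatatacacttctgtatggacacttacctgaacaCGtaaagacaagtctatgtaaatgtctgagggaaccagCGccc
Abcb4: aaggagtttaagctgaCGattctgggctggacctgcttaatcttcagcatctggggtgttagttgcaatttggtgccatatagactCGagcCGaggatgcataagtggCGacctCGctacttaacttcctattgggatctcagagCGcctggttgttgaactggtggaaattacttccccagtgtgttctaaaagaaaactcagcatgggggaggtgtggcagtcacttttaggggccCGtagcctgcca

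In the divergent pair the gene with more CpG had the higher level, and in the pair of Abcb1b and Abcb4 the gene with fewer did. Abca5 and Abca6 had 31 and 3 CpG in the same window, with Abca5 the higher gene. In mammals most broadly used promoters are rich in CpG, while promoters of tissue-restricted genes often are not.

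Over the whole family, CpG number was counted from 250 bases before to 50 after the canonical start. The median was 21 (range 4 to 43) in the 21 genes whose mean reached 100 and 8 (range 1 to 26) in the other 15. In all protein-coding genes listed the same medians were 19 and 8, so a like split was present in all protein-coding genes. Across the 36 genes the number of CpG and the log10 mean had a Spearman's rho of 0.64 and a Pearson's r of 0.58, and across the 13862 protein-coding genes rho was 0.38 and r was 0.37. These are descriptions across genes that share the same libraries, and several of the genes are neighbours or relatives. Abcg1 (25 CpG, mean 4.22) and Abca1 (26 CpG, mean 49.0) had many CpG and low means, while Abcb8 (4 CpG, mean 880) had few and a high mean. The Abcb8 window (chr5:24598903-24599202, plus) lies inside the annotated gene, which begins at base 24598639, so its CpG number depends on the start chosen. Starts other than the canonical one were not counted for any gene.

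**Figure D3:**
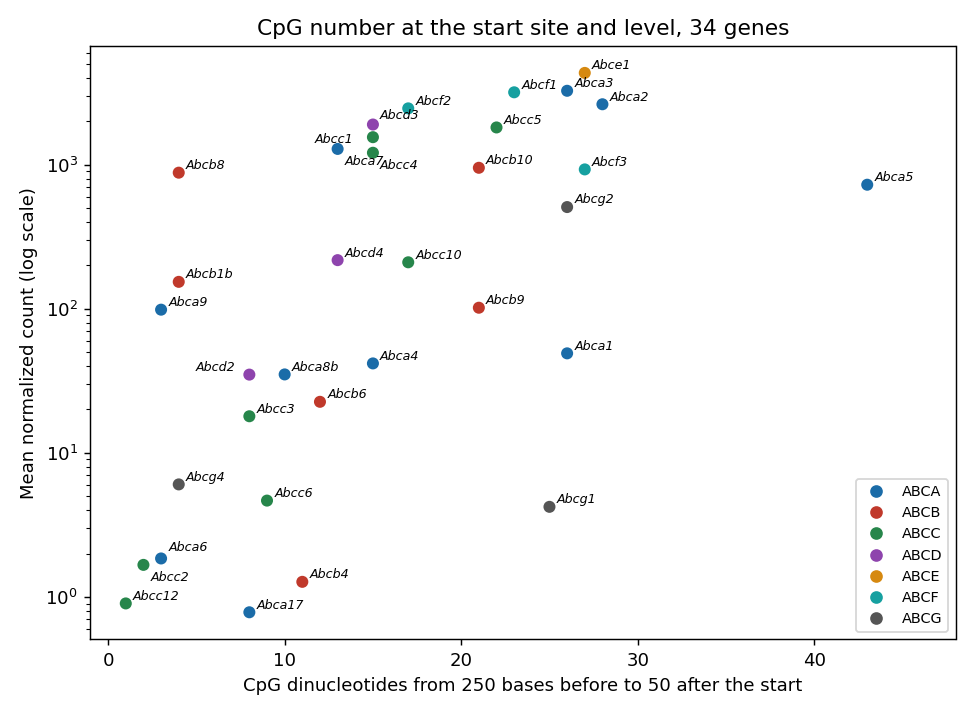
Number of CpG dinucleotides in the 300 bases around the start site and mean normalized count (log axis) for 34 of the 36 genes, 1 point per gene coloured by subfamily. Genes whose means reach 100 have a median of 21 CpG and the others 8, with Abcg1, Abca1 and Abcb8 away from the trend. The window of Abcb8 lies inside its annotated gene.

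Short motifs were counted in the same windows of 300 bases. The GC box GGGCGG, searched on both strands, was in the window of 17 of the 36 genes (47.2%) and of 56.8% of protein-coding genes. CCAAT, also on both strands, was in 7 (19.4%) and 39.7%. These are matches of letters and not sites of binding.

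Related members share stretches of sequence, and the reads were 42 bases long. Read pairs that fit more than 1 gene are left out by the counting program at its default settings, which the study's methods state. Of the 36 genes, 9 had at least 5% of the 42-base windows of their canonical transcript in a transcript of another gene, on either strand. At its default the program counts 1 strand, so an overlapping gene on the opposite strand would not by itself exclude a pair. With such overlaps left out, 3 genes remained (Abcb6, Abcb1b and Abcf2). A window is also only 1 read of a pair, and the other read may fit 1 gene. The reads lost were not counted. In Abcb6 (chr1:75148267-75157051) 88.1% of windows lay in the overlapping non-coding gene Gm29253 of the same strand. The part of this overlap in the low mean of Abcb6 was not tested. In Abcb1b 25.3% of windows were shared, and 19.4% of its windows were found in Abcb1a. Abcf2 shared 11.6%, mostly with genes elsewhere.

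For the neighbours below, only the first shared window along the transcript is shown. Their other shared windows are not shown, and some lie further along the transcript. Both windows below are coding sequence, 5′ to 3′ from GRCm39, and hold the signature motif of the nucleotide-binding domain, with the codons of its leucine, serine and paired glycines in capitals. The first is at bases 1576 to 1617 of the Abcb1b coding sequence and is identical in Abcb4. The second is at bases 2213 to 2254 of Abca3 and is identical in Abca17.
Abcb1b and Abcb4: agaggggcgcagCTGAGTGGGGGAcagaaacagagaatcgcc
Abca3 and Abca17: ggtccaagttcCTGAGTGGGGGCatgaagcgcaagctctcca

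Abcb1b shared 90 windows of 42 bases with Abcb4, which were 1.98% of the windows of Abcb4. Abca3 shared 175 with Abca17, which were 2.71% of the windows of Abca3 and 3.18% of those of Abca17. The mean of Abcb4 was 1.27 and that of Abca17 was 0.783, and the part of the shared windows in these means was not tested. Overlapping genes on the opposite strand held 16.9% in Abcb10, 14.2% in Abca3 (D330041H03Rik, mean 304) and 9.08% in Abcc3. Abcf1 shared 7.36%, of which 3.62% lay on the opposite strand and 3.74% elsewhere. Abcb4 shared 5.17%, with 1.43% on the opposite strand and 3.74% elsewhere.

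The stated settings leave the strand of the counts unclear. The library kit marks the strand so that the first read of a pair is antisense to the transcript, while the counting program takes it as sense by default. If both were used as stated, a mean would count reads from the strand opposite to its gene. The setting used was not checked on reads here. Actb and Gapdh, which are abundant in most cells, had means of 107295 and 7534.

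**Figure D4:**
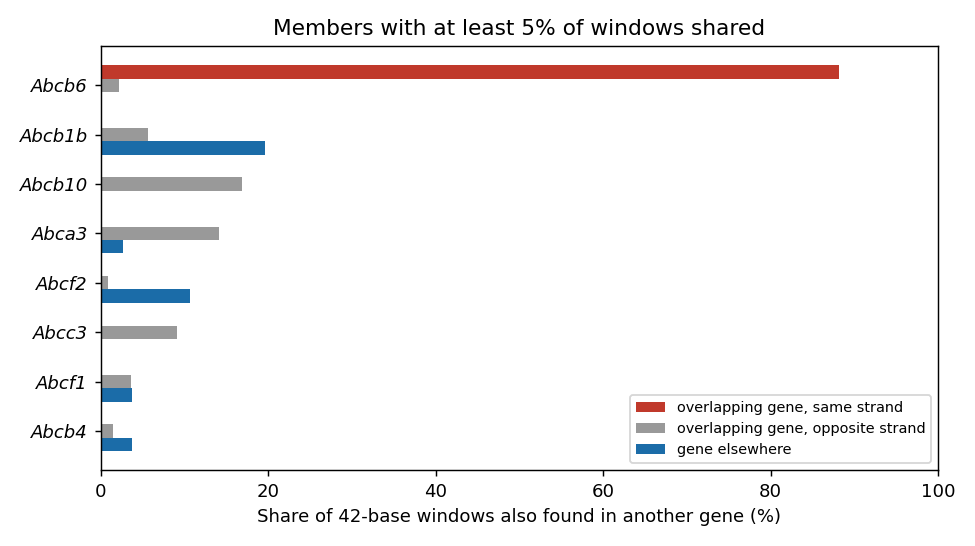
Share of 42-base windows found in another gene (%), for 8 of the 9 genes at or above 5%, split into an overlapping gene on the same strand, one on the opposite strand and a gene elsewhere. Abcb6 stands apart at 88.1%, and a window may count in more than 1 class.

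The label of the cells was checked against markers. Of 5 distal convoluted tubule markers Trpm6 had a mean of 29.6 and Klhl3 of 5.70, while Slc12a3, the defining sodium-chloride cotransporter, Pvalb and Calb1 are not listed in the table analysed here. Of 4 proximal tubule markers Lrp2 had 8826 and Cubn 169, with Slc5a2 and Slc34a1 under 3. Of 4 epithelial markers Epcam had 115 and Krt8 0.980, and Cdh1 and Krt18 are not listed. Of 3 fibroblast markers Col1a1 had 201, Dcn 6.01 and Pdgfra 4.12. Leukocyte, endothelial and collecting duct principal cell markers had means of at most 41.9 or are not listed. Markers of thick ascending limb and of intercalated cells gave 0 of 3 listed each. The ABC genes with other symbols, Cftr (a chloride channel) and Tap1 and Tap2 (the antigen peptide transporter), had means of 257, 461 and 691.

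Facts of the whole table stand beside these values. Gm26917 and Gm42418 took 8.08% of the sum of all means. A mean under 5 was listed for 26.1% of all genes, although a minimum of 5 counts per sample and gene is stated, so the low values of Abcc6, Abcg1, Abca6, Abcc2, Abcb4, Abcc12 and Abca17 rest on few reads.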

How the data were processed

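RNA sequencing was analysed for 3 Pkd1-/- and 3 wild type samples of mDCT15 cells, grouped by their titles. Libraries were made from ribosomal RNA-depleted total RNA with a stranded kit, and read pairs of 42 bases were sequenced. The authors trimmed reads with Trim Galore 0.4.5, aligned the reads to GRCm39 (Ensembl release 105) with STAR 2.7.5a, counted genes with HTSeq 0.11.0 at default parameters, and normalized and compared counts with DESeq2 1.22.0 in R 3.5.3.

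The deposited table holds for each gene 1 normalized count averaged by the authors over all 6 samples, a signal already divided by size factors. Its other columns hold the authors' own comparison of the genotypes (a fold change, its error, a statistic and p-values) and were not used. Values per sample were not analysed here, so the planned count test was not run and no spread, depth or error could be given. The only column of values used was this mean over all samples, so no column was matched to a single sample.

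Levels per kb were the mean divided by the merged exon length from GENCODE on GRCm39, found for 20122 genes (97.6%). Windows of 42 bases were searched on both strands in transcripts of other genes, and the start-site windows came from the genome. Genes to name were the 3 highest per subfamily, role lists, neighbours within 200 kb, genes under a mean of 10 and genes with shared windows. The members and lists were chosen with earlier results of these data known. Values of 2 members count in the totals and are not reported here. Scripts were tested on simulated data. Biopython 1.88, pandas 2.3.3, numpy 2.4.6, matplotlib 3.10.9 and scipy 1.17.1 were run in Python 3.11.15.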

Additional observations from a re-analysis of the deposited data

How the results depend on the processing

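The number of genes whose mean reached 100 was 21. It was 28 at a minimum of 10, 11 at a minimum of 1000, 24 with Cftr, Tap1 and Tap2 added and 21 with every identifier of a repeated symbol. The last setting could not change the number, because 0 symbols were listed more than once. At or above the median of all listed genes lay 20 genes, 18 on the per-kb scale, 16 against the median of genes whose mean reached 10, and 16 against that of protein-coding genes, a setting chosen after seeing the data. Of the 10 highest genes per kb, 8 were kept with the longest transcript and 8 with no division by length. The 9 genes with shared windows became 7 with windows of 84 bases. They became 3 (Abcb6, Abcb1b and Abcf2) with opposite-strand overlaps left out, a setting chosen after seeing the data.

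No paired analysis was possible because the table analysed here gives 1 mean over all samples and no value per sample. For the same reason the planned count test, its second tool and filter and the fits without each replicate were not run. Depth limits the 8 genes with a mean under 10 most. Division by length depends on which transcripts the cells use, which was not measured. The gene models are of a later annotation than the one the reads were counted with.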
